A study of Mus musculus with 14 samples.

Results

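The SR splicing factors are RNA-binding proteins with 1 or a pair of RNA recognition motifs and a tail rich in arginine and serine. They bind exonic enhancers, recruit the spliceosome to neighbouring splice sites, and several also escort spliced mRNA out of the nucleus. Many SR genes hold a poison exon whose inclusion sends the message to nonsense-mediated decay, so that an SR protein can lower its own output, and stem cells depend on SR activity for the isoforms that maintain pluripotency. Values here are for 10 genes, Srsf1, Srsf2, Srsf3, Srsf4, Srsf5, Srsf6, Srsf7, Srsf9, Srsf10 and Srsf11, taken by symbol from 24345 symbols in the RNA-seq tables and 24394 in the RNA immunoprecipitation (RIP) tables. All 10 were found in both kinds of table, each at 1 locus, and all 10 passed the filter on low values in every comparison.

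The 14 mouse libraries form 7 groups of 2. RNA-seq of total RNA covered untreated wild-type embryonic stem cells (mESC, a home made line) and untreated wild-type primary embryonic fibroblasts (MEF). It also covered untreated home made stem cells that served as controls for a knockdown (KD_control, labelled wild type) and untreated stem cells with Dppa5a knocked down (Dppa5a_KD). Dppa5a, a protein with an RNA-binding KH domain, is found in pluripotent cells, and the sources used here do not say how it was knocked down. RIP recovers RNA bound to a protein with an antibody. All 6 RIP libraries came from home made stem cells that overexpress 3Flag-Dppa5a, so the control RIP carried the transgene too. RNA was recovered with IgG from untreated cells (IgG_RIP), with a Flag antibody from untreated cells (Flag_RIP), or with the same Flag antibody after a treatment labelled HU, which the labels do not spell out (HU_Flag_RIP). Stem cells were kept with LIF on inactivated feeder fibroblasts and taken off the feeders onto gelatin before harvest, per the labels, and fibroblasts grew in serum. The labels do not say whether replicates were separate cultures, so p-values measure the spread between these libraries only.

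Dppa5a stood at 5126 and 5417 FPKM (fragments scaled to transcript length and to library depth) in KD_control and at 101 and 358 in Dppa5a_KD. Knockdown was thus incomplete and differed between its libraries. In the mESC libraries Dppa5a stood at 1485 and 1818 FPKM, under both KD_control libraries. In the RIP libraries the Dppa5a message itself was not raised by the Flag antibody, at 232 and 252 CPM (counts scaled to a common library size) with IgG against 170 and 160 with Flag. Summed over 10 pluripotency markers, the stem cell libraries held 2321 to 4297 FPKM and the MEF libraries 23.4 and 17.7. For 10 fibroblast markers the sum reached 7566 and 6939 FPKM in MEF but 7.20 to 19.8 in the stem cell libraries. IgG libraries held 3472020 and 3703236 counts, and Flag and HU_Flag libraries 7378729 to 13033886. The abundant RNAs Rn45s, Rmrp, Rpph1 and Lars2 took 79.8% and 77.3% of IgG counts and 88.3% to 89.2% of the others. Outside them lay 702016 and 841305 counts with IgG and 816592 to 1492111 with Flag or HU_Flag.

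Promoter windows of 4 members are shown because, among members, Srsf3 and Srsf2 rose most after Dppa5a knockdown, Srsf7 differed most between mESC and MEF, and Srsf5 differed most between Flag and IgG in the RIP. Each window runs from 250 bases before to 50 after a RefSeq transcript start on GRCm38.p6, 5′ to 3′ on the gene's strand. They are chr11:116853045-116853344 (minus strand) for Srsf2, chr17:29032410-29032709 (plus strand) for Srsf3, chr17:80207256-80207555 (minus strand) for Srsf7 and chr12:80945249-80945548 (plus strand) for Srsf5. Capitals mark matches on either strand to the TATA-type motif TATANA, to the CCAAT box, or to the cyclic AMP response half-site TGACGT.
Srsf2: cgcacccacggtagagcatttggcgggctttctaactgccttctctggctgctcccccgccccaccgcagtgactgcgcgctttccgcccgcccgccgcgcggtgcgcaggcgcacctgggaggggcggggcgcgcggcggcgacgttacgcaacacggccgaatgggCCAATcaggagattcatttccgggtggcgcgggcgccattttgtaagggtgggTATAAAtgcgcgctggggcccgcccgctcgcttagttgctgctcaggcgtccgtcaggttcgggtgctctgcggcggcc
Srsf3: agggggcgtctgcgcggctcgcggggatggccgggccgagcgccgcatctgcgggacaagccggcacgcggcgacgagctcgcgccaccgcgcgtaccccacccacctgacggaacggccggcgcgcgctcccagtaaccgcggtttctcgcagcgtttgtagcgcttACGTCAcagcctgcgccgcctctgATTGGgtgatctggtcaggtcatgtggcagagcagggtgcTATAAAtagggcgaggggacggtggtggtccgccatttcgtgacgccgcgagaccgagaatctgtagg
Srsf7: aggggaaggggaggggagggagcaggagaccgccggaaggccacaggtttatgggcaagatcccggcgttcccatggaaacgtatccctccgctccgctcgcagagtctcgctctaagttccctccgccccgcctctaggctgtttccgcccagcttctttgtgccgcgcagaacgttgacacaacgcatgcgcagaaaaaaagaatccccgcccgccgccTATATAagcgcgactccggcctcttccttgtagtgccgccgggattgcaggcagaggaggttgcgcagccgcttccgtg
Srsf5: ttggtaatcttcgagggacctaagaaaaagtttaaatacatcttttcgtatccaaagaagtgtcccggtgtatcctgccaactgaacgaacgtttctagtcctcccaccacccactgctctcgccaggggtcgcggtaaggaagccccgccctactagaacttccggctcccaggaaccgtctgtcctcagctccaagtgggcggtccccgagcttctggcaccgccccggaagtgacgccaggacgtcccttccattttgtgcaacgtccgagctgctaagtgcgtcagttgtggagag

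In Srsf2 the letters TATAAA begin 29 bases before the start and CCAAT 82 bases before it. Srsf3 holds TATAAA at 18 bases before its start. A CCAAT box on the other strand begins 58 bases before it, and the half-site, also on the other strand, 82 bases before it. Srsf7 holds TATATA at 29 bases before its start, and Srsf5 holds none of those 3 motifs. Matches to TATANA were found in 3 of 10 members (Srsf2, Srsf3 and Srsf7) and in 24.7% of 32851 windows in RefSeq. CCAAT was matched in Srsf1, Srsf2, Srsf3 and Srsf10, against 37.4% of all windows, and TGACGT in Srsf3, Srsf6 and Srsf11, against 7.51%. The GC box GGGCGG was matched in 9 members, all but Srsf3, against 35.7% of all windows. CCGGAAG, an ETS-type motif, was matched in Srsf4, Srsf5, Srsf7 and Srsf11 (8.86% of all windows), and the E-box CACGTG in no member (7.15%). GC content was 69.3% in Srsf2, 68.3% in Srsf3, 62.7% in Srsf7 and 56.0% in Srsf5, against a median of 52.7% over all windows. The motifs were chosen with these sequences in view, Srsf4 and Srsf11 have several windows of which any match counted, and a match of letters is not a measured binding site.

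Srsf2 (SC35), a nuclear speckle protein that activates exons, was the most abundant SR message in every RNA-seq group. It had 478 and 447 FPKM in the mESC libraries, 241 and 213 in MEF, 199.9 and 246 in Dppa5a_KD, and 75.0 and 77.8 in KD_control. These ranges do not overlap except that MEF and Dppa5a_KD do. Srsf4 (SRp75), with the longest arginine- and serine-rich tail of the family, was the least abundant in all 4 groups, between 6.81 and 17.3 FPKM. The 10 members together summed to 449 and 455 FPKM in KD_control, 764 and 922 in Dppa5a_KD, 842 and 828 in MEF, and 1683 and 1482 in mESC. FPKM adds all isoforms of a gene, so productive messages and those with a poison exon are not separated. In bulk RNA, fewer cells with a message and less of it per cell cannot be told apart.

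**Figure D1:**
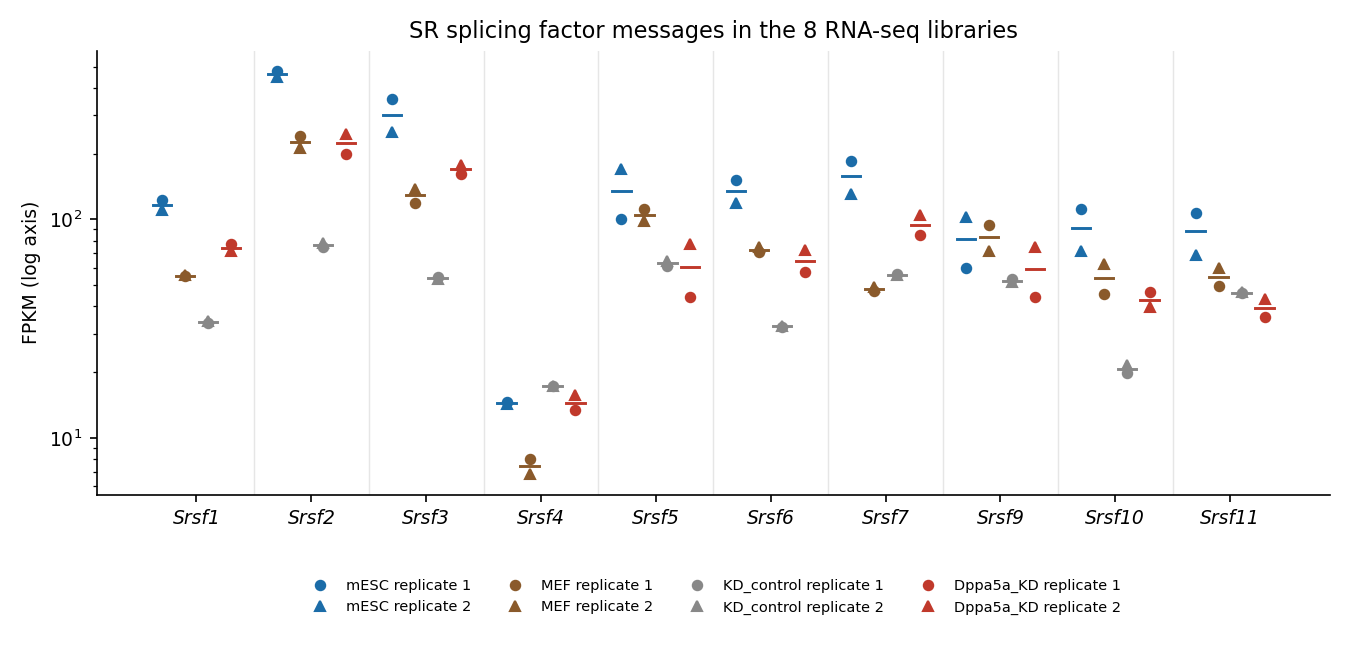
FPKM (log axis) of the 10 SR genes in the 8 RNA-seq libraries, with circles for replicate 1, triangles for replicate 2 and bars at the group mean. Srsf2 is highest and Srsf4 lowest in every group, and for Srsf1, Srsf2, Srsf3, Srsf6 and Srsf10 both KD_control libraries lie under all others.

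The order below Srsf2 depended on the group. Srsf3 (SRp20), the smallest SR protein and an adaptor for mRNA export, ranked behind Srsf2 in mESC, MEF and Dppa5a_KD, but in KD_control it came after Srsf5 and Srsf7 and its libraries overlapped those of Srsf9. In mESC each gene from Srsf7 down to Srsf9 overlapped the next in rank. Genes farther apart in that order were resolved in part: Srsf7 lay wholly above Srsf1, Srsf10, Srsf11 and Srsf9, Srsf6 above Srsf10, Srsf11 and Srsf9, and Srsf1 above Srsf11 and Srsf9, whereas Srsf5 overlapped all of these. In MEF, Srsf5 at 111 and 98.0 FPKM stood above Srsf9, whose libraries overlapped those of Srsf6, and Srsf1, Srsf11, Srsf10 and Srsf7 overlapped in turn. In Dppa5a_KD, Srsf7 was followed by Srsf1 without overlap, and from Srsf1 down to Srsf11 each neighbour overlapped the next. Only in KD_control were nearly all steps resolved, with Srsf3 and Srsf9 the exception.

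Members differed in how widely they ranged over the groups. The highest group mean was 6.05 times the lowest for Srsf2, 5.61 times for Srsf3, 4.43 times for Srsf10, 4.17 times for Srsf6, 3.43 times for Srsf1 and 3.28 times for Srsf7. The spread was narrower for Srsf4 (2.33 times), Srsf11 (2.24 times), Srsf5 (2.23 times) and Srsf9 (1.58 times). Replicates also differed by gene. Srsf5 and Srsf9 were the most divergent pair of members between libraries of 1 group: in mESC replicate 2 exceeded replicate 1 by 1.68 times for Srsf5 and 1.70 times for Srsf9, and in Dppa5a_KD by 1.74 and 1.69 times. Srsf10 and Srsf11 went the other way in mESC, with replicate 1 higher by 1.56 times each. No member's KD_control libraries differed by more than 1.08 times.

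Stem cells and fibroblasts were compared to ask how SR messages differ between a pluripotent and a differentiated cell. Of 10 SR genes, 6 were higher in mESC than in MEF (limma on log2(FPKM + 1), Benjamini-Hochberg adjusted p under 0.05, the threshold for a call here) and none were lower, where 30.6% of 12875 genes were higher and 26.1% lower. Their median difference was 0.88 on that log2 scale, against 0.15 over all genes. The libraries of mESC lay above those of MEF for 8 members, where 44.2% of genes did. Srsf7 (9G8), which carries a zinc knuckle and shuttles between nucleus and cytoplasm, had 184 and 131 FPKM in mESC and 47.0 and 48.8 in MEF. Both mESC libraries were far above both MEF libraries, and the log2 difference was 1.67 (SE 0.25, limma adjusted p = 0.0035). Srsf3 had 354 and 249.8 FPKM in mESC against 119 and 138 in MEF. The groups were apart, with a log2 difference of 1.21 (SE 0.27, limma adjusted p = 0.014).

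Srsf2 was also higher in mESC, by 1.03 on the log2 scale (SE 0.23, limma adjusted p = 0.014), from the levels given above. Srsf1 (ASF/SF2), the founding member of the family and a proto-oncogene, had 123 and 109.8 FPKM in mESC and 54.8 and 55.7 in MEF. That log2 difference of 1.06 (SE 0.21, limma adjusted p = 0.0088) had close replicates on either side. Srsf6 (SRp55), a regulator of alternative exons, had 151 and 118 FPKM against 70.6 and 74.4, a log2 difference of 0.88 (SE 0.23, limma adjusted p = 0.024). Srsf4 had 14.6 and 14.3 FPKM against 8.0 and 6.81, and rose by a similar amount at its far lower level (0.88, SE 0.20, limma adjusted p = 0.014).

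The remaining 4 members were not called. Srsf10 (SRp38), which represses splicing when dephosphorylated, had 112 and 71.8 FPKM in mESC and 45.7 and 62.3 in MEF. Its groups did not overlap, but its log2 difference of 0.74 came with an SE of 0.31 (limma adjusted p = 0.093). Srsf11 (p54), an SR-related protein, had 107 and 68.9 FPKM against 49.8 and 59.7 (log2 difference 0.65, SE 0.29, limma adjusted p = 0.11). Srsf5 (SRp40) had 101 and 169 FPKM against 111 and 98.0. Srsf9 (SRp30c) had 60.0 and 102 FPKM against 93.8 and 71.6. For these last genes the libraries overlapped, with log2 differences of 0.32 (SE 0.31) and -0.06 (SE 0.33). With either MEF library left out, no member passed the threshold (0 called in each case), although all 6 differences stayed above 0.

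KD_control and mESC carry the same label of untreated wild-type stem cells, yet the SR messages were far lower in KD_control. Of 10 members, 7 were lower and none higher, where 15.0% of 12595 genes were lower and 26.5% higher. The members' median log2 difference was -1.60, against 0.19 over all genes. Both KD_control libraries lay under both mESC libraries for 9 members (32.0% of genes) and above them for Srsf4 (47.9%). Dppa5a itself was higher in KD_control than in mESC, by 1.68 on the log2 scale (SE 0.23, limma adjusted p = 0.012). Its part in the SR differences was not tested. The labels name no batch, and these 2 groups cannot be told apart from any difference in when or how they were grown or sequenced.

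Srsf2 was lower in KD_control by the most, with a log2 difference of -2.58 (SE 0.15, limma adjusted p = 0.0071). Srsf3, at 54.4 and 53.1 FPKM in KD_control, followed at -2.45 (SE 0.22, limma adjusted p = 0.0075). Srsf10, at 19.9 and 21.6 FPKM, differed by -2.06 (SE 0.25, limma adjusted p = 0.010). For these 3 genes, as for Srsf6 and Srsf1, each mESC library held more than 3 times the FPKM of either KD_control library. Srsf6, at 32.2 and 32.5 FPKM in KD_control, differed by -2.01 (SE 0.18) and Srsf1, at 33.6 and 34.1 FPKM, by -1.75 (SE 0.14). Srsf7, at 56.1 and 55.8 FPKM, differed by -1.46 (SE 0.21, limma adjusted p = 0.013), and Srsf5, at 61.2 and 64.8 FPKM, only just passed (-1.04, SE 0.29, limma adjusted p = 0.049). Calls for Srsf7 and Srsf5 were lost without either KD_control library. Srsf11 (45.9 and 46.4 FPKM, -0.88, SE 0.25) and Srsf9 (53.3 and 51.5 FPKM, -0.57, SE 0.29) were not called, nor was Srsf4, which at 17.3 and 17.2 FPKM was the only member above its mESC level (0.24, SE 0.13).

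Knockdown of Dppa5a was compared with KD_control to ask which SR messages change when this RNA-binding protein is depleted. The same 2 KD_control libraries serve here and in the comparison with mESC, so the 2 sets of differences are not independent. Of 10 members, 6 were higher in Dppa5a_KD and none lower (limma, adjusted p under 0.05), where 13.6% of 12345 genes were higher and 23.8% lower. The members' median log2 difference was 0.85, while that over all genes was -0.11. The Dppa5a_KD libraries lay above the controls for 6 members (30.8% of genes) and under them for 2 (44.8%). The summed level of the 10 fibroblast markers moved with the knockdown, from 18.6 and 19.8 FPKM in KD_control to 7.67 and 7.20 in Dppa5a_KD. All 3 of these markers that passed the filter (Thy1, Pdgfrb and Pdgfra) fell, and Dcn and Postn were listed at 0 in all 4 libraries. Of the 10 pluripotency markers 1 fell and none rose. The part of these markers in the SR differences was not tested.

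Srsf3 had 161 and 177 FPKM in Dppa5a_KD against the 54.4 and 53.1 of KD_control. Each knockdown library held about 3 times the control level, a log2 difference of 1.64 (SE 0.12, limma adjusted p = 0.0060), which ranked 45 of 12345 genes by size. Srsf2 had 199.9 and 246 FPKM against 75.0 and 77.8. The groups were far apart, with a log2 difference of 1.53 (SE 0.15, limma adjusted p = 0.0063) that ranked 62. Srsf1 rose from 33.6 and 34.1 to 77.1 and 71.3 FPKM (1.11, SE 0.10, limma adjusted p = 0.0062). Srsf10 rose from 19.9 and 21.6 to 46.3 and 39.5 FPKM (1.01, SE 0.12, limma adjusted p = 0.0078). In these 2 genes the higher knockdown library was replicate 1, which had less Dppa5a left, and in the other 4 genes that rose it was replicate 2.

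Srsf6 and Srsf7 rose less. Srsf6 had 57.3 and 72.2 FPKM in Dppa5a_KD against 32.2 and 32.5 (0.97, SE 0.14, limma adjusted p = 0.011). Srsf7 had 84.5 and 105 FPKM against 56.1 and 55.8 (0.74, SE 0.14, limma adjusted p = 0.019), and its call was lost without either KD_control library (limma adjusted p = 0.14 for each). The groups did not overlap for either gene. Of the 6 genes that rose, Srsf1, Srsf2 and Srsf3 kept the call in all 13 settings tried.

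Srsf4, Srsf5, Srsf9 and Srsf11 did not pass the test after knockdown. Srsf4 had 13.3 and 15.7 FPKM against 17.3 and 17.2, and Srsf11 had 35.6 and 43.1 against 45.9 and 46.4. Both knockdown libraries were under both controls for these genes, with log2 differences of -0.24 (SE 0.12, limma adjusted p = 0.17) and -0.23 (SE 0.13, limma adjusted p = 0.21). Srsf5 had 44.2 and 77.0 FPKM against 61.2 and 64.8, and Srsf9 had 44.0 and 74.5 against 53.3 and 51.5. In each the control libraries lay between the knockdown libraries, with log2 differences of -0.11 (SE 0.27) and 0.13 (SE 0.26), and Srsf5 turned above 0 when the libraries were scaled to a common sum or by median ratios. Without Dppa5a_KD replicate 2, which retained more Dppa5a, all 10 members were called, 6 higher and 4 lower, but so were 76.3% of all genes. Without Dppa5a_KD replicate 1, 8 were called, against 69.6% of all genes.

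The make-up of the SR messages, as each gene's share of the members' summed FPKM, also differed between groups. In KD_control, Srsf2 made up 16.7% and 17.1% of that sum and Srsf3 12.1% and 11.7%. In Dppa5a_KD these shares were 26.2% and 26.7% for Srsf2, and 21.1% and 19.3% for Srsf3, and in mESC 28.4% and 30.2%, and 21.0% and 16.9%. Srsf11 took 10.2% of the sum in both KD_control libraries and 4.66% and 4.68% in Dppa5a_KD. Srsf4 took 3.86% and 3.78% in KD_control and 1.75% and 1.70% in Dppa5a_KD.

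**Figure D2:**
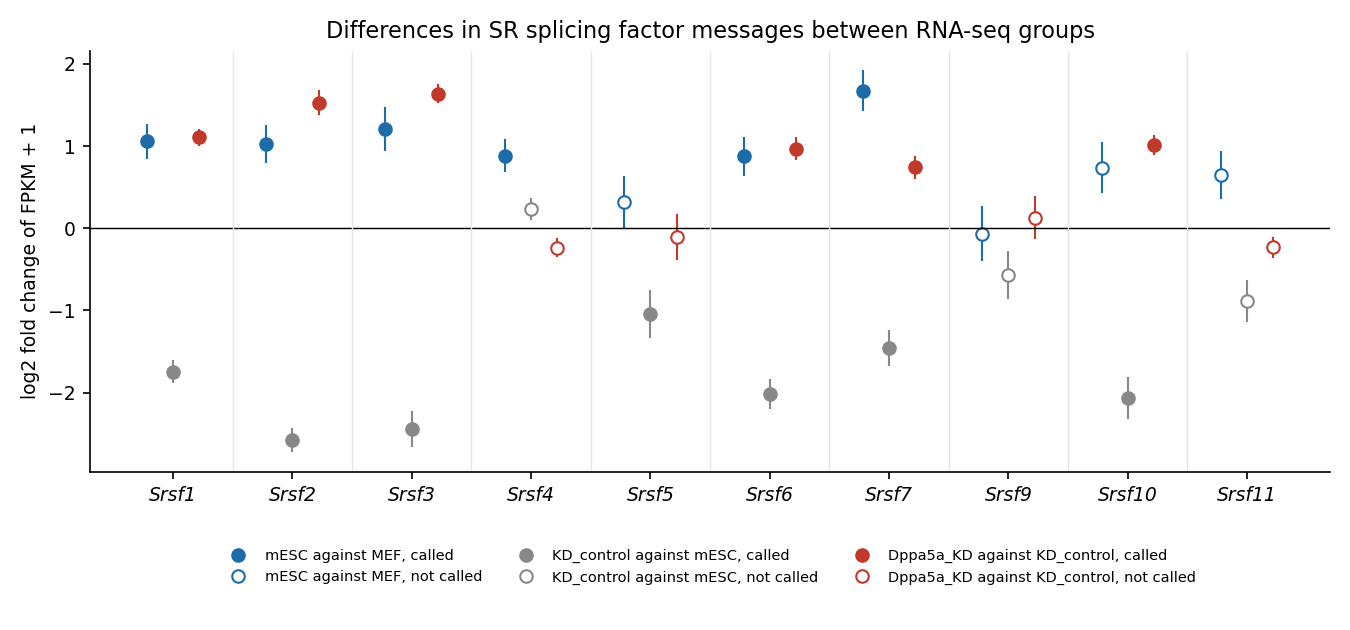
Log2 fold changes of FPKM + 1 (bars, SE) of the 10 SR genes in the 3 RNA-seq comparisons, filled where the limma adjusted p was under 0.05. KD_control lies under mESC for all but Srsf4, and Dppa5a_KD lies above KD_control for 6 called genes, with Srsf5 (not called, -0.11) turning above 0 under other scalings. Comparisons share the mESC or the KD_control libraries.

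Genes that act on or beside SR proteins were read in the same tables. SR kinases phosphorylate the arginine- and serine-rich tail and so release SR proteins from speckles. After knockdown, 5 of 9 tested kinases were lower and 1 higher, with a median log2 difference of -0.62, where 23.8% of all genes were lower and 13.6% higher, with a median of -0.11. Clk1 fell from 46.9 and 47.7 FPKM to 14.1 and 20.0 (-1.44, SE 0.18, limma adjusted p = 0.0081). Clk4 fell from 16.1 and 15.6 to 4.99 and 6.51 FPKM (-1.33, SE 0.14), and Clk3 from 31.2 and 30.1 to 13.0 and 15.7 FPKM (-1.05, SE 0.12). These CDC-like kinases stood at lower levels in the libraries where 6 SR messages stood higher. With median-ratio scaling 4 kinases were lower and 2 higher, where 17.2% and 20.7% of all genes were. With no filter on low values none was called, where 8.07% of genes were. Without KD_control replicate 1 or 2 fewer kinases, and fewer of all genes, were called. The kinase median was then -0.60 or -0.64. Between mESC and MEF, 1 of 9 kinases was higher and 1 lower, where 30.6% of all genes were higher and 26.1% lower: Srpk1 had 52.7 and 57.5 FPKM in mESC against 23.9 and 23.2 in MEF, and Akt1, a general kinase that also acts on SR proteins, had 14.8 and 30.5 against 175 and 142.

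Of 8 factors that import SR proteins or export mRNA, 4 rose with the knockdown and none fell (median log2 difference 0.48), beside the 13.6% and 23.8% of all genes. Alyref, an mRNA export adaptor, had 136 and 161 FPKM in Dppa5a_KD against 59.5 and 64.1 in KD_control (1.25, SE 0.14, limma adjusted p = 0.0069). Ddx39b, the helicase that loads it, had 158 and 195 against 93.4 and 87.6 (0.95, SE 0.15). Thoc1, of the THO complex, had 12.3 and 10.6 against 6.38 and 6.71 (0.72, SE 0.12). With no filter, 1 transport gene was called higher, where 2.65% of all genes were. Without KD_control replicate 1 or 2 fewer transport genes, and fewer of all genes, were called. The transport median was then 0.49 or 0.47. In mESC against MEF, 2 of 8 transport genes were higher, a share near the 30.6% of all genes. One of them was Tnpo3, the importin that carries SR proteins into the nucleus, at 109 and 77.9 FPKM against 31.4 and 38.2 (1.39, SE 0.26).

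Cofactors and related proteins share the arginine- and serine-rich domain. After knockdown, 2 of 15 rose and 1 fell (median 0.20), near the 13.6% of all genes for rises and under the 23.8% for falls: Tra2b rose by 0.83 (SE 0.12), Son by 0.96 (SE 0.23), and Srrm1 fell by 0.49 on the log2 scale. With median-ratio scaling 8 cofactors were higher, where 20.7% of all genes were, and the call for Srrm1 was lost. With a common sum the calls for Srrm1 and Son were lost. In mESC against MEF, 6 of 14 cofactors were higher and none lower (30.6% and 26.1% of all genes), among the former Srrm1, Tra2a and Rnps1. The nonsense-mediated decay factors, which degrade poison-exon messages, were higher in mESC than in MEF for 9 of 14, among them Smg5 (1.16, SE 0.22), with a median of 0.75 against 0.15 over all genes. With no filter on low values, 1 cofactor and 5 decay factors were higher there, where 11.4% of all genes were. The replicate block gave 2 and 4, where 25.8% of all genes were higher. After knockdown 1 of 14 decay factors rose (Upf3a, 0.62, SE 0.12) and 1 fell (Smg6, by 0.92 on the log2 scale). Both counts lay under the general share, 13.6% of all genes for rises and 23.8% for falls. Proteins of the hnRNP class oppose SR proteins at many exons. Of 9 such genes 4 rose with the knockdown and 1 fell, where 13.6% and 23.8% of all genes did. Hnrnpm had 128 and 129 FPKM against 55.5 and 55.7 (1.19, SE 0.11), Hnrnph1 rose by 1.14 (SE 0.11) and Hnrnpa3 by 0.68 (SE 0.10). Without either KD_control library 2 of these genes were higher. Between mESC and MEF, 2 of the 9 were higher, Hnrnpf (1.18, SE 0.24) and Hnrnpa2b1 (0.89, SE 0.22), and 1 was lower, Rbmx (-2.23, SE 0.27). Both counts lay under the general share, as 30.6% of all genes were higher and 26.1% lower. Without either MEF library no gene of these lists was called higher in mESC.

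In KD_control against mESC, the other lists were called as follows. Antagonists were lower for 5 of 9 and higher for none, transport factors lower for 4 of 8 and higher for none, and cofactors lower for 6 of 15 and higher for 1. Kinases were lower for 1 of 9 (Prpf4b) and higher for 1 (Clk3), and decay factors higher for 3 of 14 and lower for 1. Over all genes 15.0% were lower and 26.5% higher, so the counts for kinases and decay factors lay near or under the general share. Their median log2 differences were -0.62, -0.94, -0.25, 0.04 and -0.31, against -1.60 for the SR genes and 0.19 over all genes. With no filter on low values no kinase, 3 antagonists, 1 transport factor and 3 cofactors were lower, where 3.20% of all genes were. With median-ratio scaling the kinase median turned to -0.18, and without either KD_control library no transport or decay gene was called.

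Likeness was read across the 8 RNA-seq libraries for the 3 SR genes with the widest range, Srsf3, Srsf2 and Srsf10. Among 6605 genes whose mean reached 10 FPKM, Mat2a was most like Srsf3 (Pearson r = 0.998 of log2 values), then Tsn (0.986) and Socs2 (0.981). Heatr3 (0.988), Srm (0.979) and Kifc3 (0.975) were most like Srsf2. Cul1 (0.992), Bclaf1 (0.992) and Gspt1 (0.990) were most like Srsf10. Among members, r was 0.985 for Srsf1 with Srsf3, 0.984 for Srsf2 with Srsf6, and -0.42 for Srsf4 with Srsf9. The 8 libraries form 4 groups of 2, so these values mainly describe 4 group levels and carry no test.

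In the RIP, recovery of SR messages with Flag was compared with IgG to ask which are bound by Flag-tagged Dppa5a. Input RNA was not used here, so recovery is relative to IgG alone. Of 10 members, 2 were higher with Flag (edgeR quasi-likelihood test, Benjamini-Hochberg adjusted p under 0.05), where 1.16% of 10473 genes were. The median log2 fold change of the members was 0.74, against 0.02 over all genes, and both Flag libraries lay above both IgG libraries for 9 members, where 23.7% of genes did. These directions depend on TMM scaling of the counts, which takes most genes as equal between libraries: scaled by library size alone, the median over all genes moved to -0.87 and 7 members fell below 0. Members held 0.212% and 0.225% of IgG counts outside the 4 abundant RNAs and 0.438% and 0.363% of Flag counts, but 0.0429% and 0.0512% against 0.0502% and 0.0426% of all counts.

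Srsf5 stood out from its family in the RIP. It had 123 and 126 counts with IgG, 1111 and 873 with Flag and 635 and 677 with HU_Flag. In TMM-scaled CPM this was 24.5 and 21.3, 108 and 109, and 84.4 and 111. All 4 Flag libraries held over 3 times the CPM of either IgG library, whether or not HU was used. The log2 fold change over IgG was 2.24 with Flag (SE 0.29, edgeR adjusted p = 1.6e-04), rank 14 of 10473 genes by p, and 2.09 with HU_Flag (SE 0.29, edgeR adjusted p = 6.8e-04), rank 9. With Flag it stayed called in all 12 settings, at 1.35 to 2.37, library size alone included. With HU_Flag it stayed called in 11 of 12, at 1.18 to 2.28, and missed only without IgG replicate 2 (edgeR adjusted p = 0.054). Srsf5 was also among the members whose RNA level was not called after knockdown.

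Srsf7 had 13.5 and 17.4 CPM with IgG, 47.9 and 37.1 with Flag and 50.6 and 28.6 with HU_Flag. All Flag libraries lay above all IgG libraries, with log2 fold changes of 1.45 (SE 0.35, edgeR adjusted p = 0.031) and 1.35 (SE 0.35, edgeR adjusted p = 0.039). Srsf2 had 34.4 and 43.3 CPM with IgG, 103 and 63.1 with Flag and 132 and 65.2 with HU_Flag. Its groups were apart too, and it was called over IgG with HU_Flag (1.34, SE 0.34, edgeR adjusted p = 0.038) but not with Flag (1.09, SE 0.34, edgeR adjusted p = 0.10). With library size alone these 2 genes were not called (Srsf7 0.54 and 0.41, Srsf2 0.18 and 0.40). Without either IgG library, or without replicate 1 of the Flag or HU_Flag group compared, Srsf7 was called in neither comparison and Srsf2 was not called with HU_Flag.

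With HU_Flag over IgG, 3 members were higher in all (Srsf2, Srsf5 and Srsf7), where 1.44% of genes were. The members' median was 0.72 against 0.04 over all genes, and 6 members did not overlap with IgG, where 23.9% of genes were higher without overlap. These 2 comparisons share the IgG libraries, and with library size alone 5 members turned below 0 over IgG in HU_Flag. Srsf6 had 29.9 and 24.9 CPM with IgG, 55.2 and 39.6 with Flag and 55.7 and 50.6 with HU_Flag, with no overlap but no call (0.79, SE 0.30, and 0.96, SE 0.31). Srsf11 had 10.8 and 9.65 CPM with IgG, 17.8 and 14.0 with Flag and 24.6 and 17.4 with HU_Flag. It was likewise apart from IgG and not called (0.64, SE 0.37, and 1.04, SE 0.37).

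Srsf1 had 61.7 and 79.9 CPM with IgG, 106 and 93.7 with Flag and 118 and 81.1 with HU_Flag. Srsf3, the gene that rose most among members after knockdown, had 55.6 and 69.6, then 113 and 71.1, then 116 and 59.0. Their log2 fold changes with Flag were 0.49 (SE 0.28) and 0.56 (SE 0.33), not called, and both turned negative with library size alone. Srsf10 had 26.3 and 24.0 CPM with IgG, 39.4 and 41.9 with Flag and 43.7 and 23.6 with HU_Flag, a fold change with Flag of 0.69 on the log2 scale (SE 0.33). Srsf9 (SRp30c) was at 36.6 and 28.8 CPM with IgG, 40.2 and 30.1 with Flag and 39.5 and 26.1 with HU_Flag. Its log2 fold changes were 0.11 (SE 0.32) and 0.01 (SE 0.33), and its libraries overlapped throughout. Srsf4 had 13 to 58 counts per library, too few to resolve its fold change of 0.87 with Flag (SE 0.63).

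**Figure D3:**
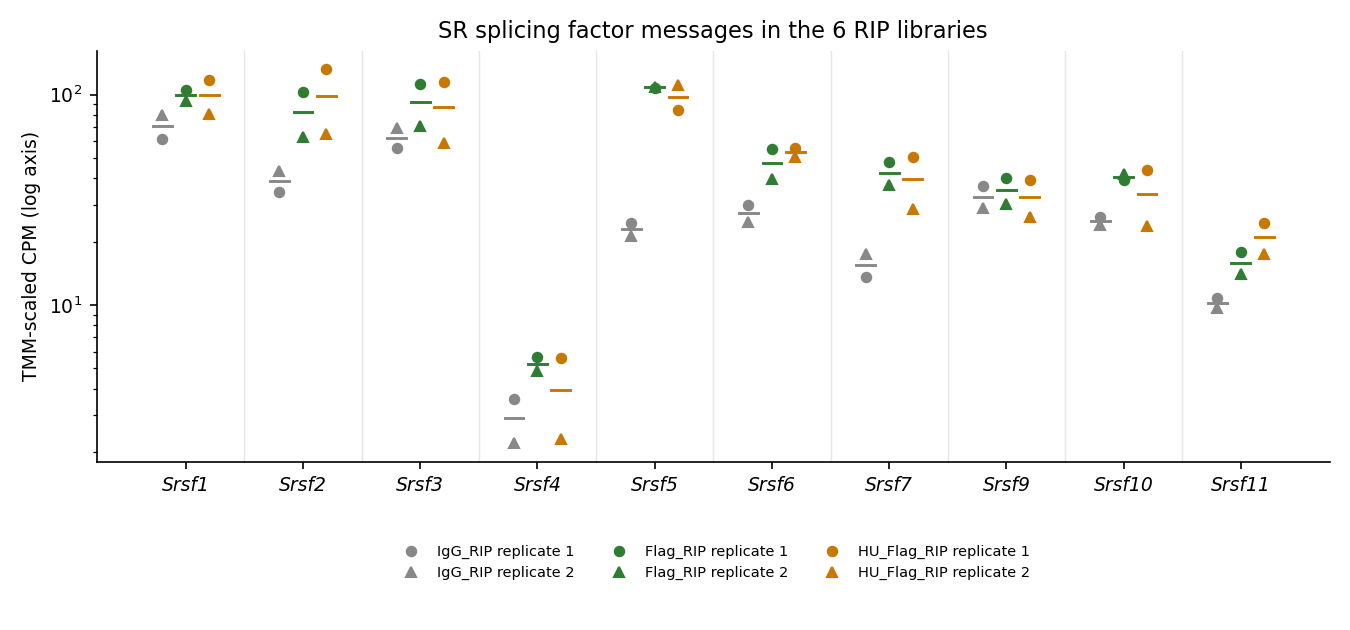
TMM-scaled CPM (log axis) of the 10 SR genes in the 6 RIP libraries, with circles for replicate 1, triangles for replicate 2 and bars at the group mean. Srsf5 shows the widest gap between IgG_RIP (24.5 and 21.3) and the Flag libraries (84.4 to 111), while Srsf9 overlaps throughout. CPM are not per length, so levels are compared within a gene only.

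No difference in the recovery of SR messages was detected between HU_Flag and Flag. Of 10 members, 0 were called between HU_Flag and Flag by edgeR's quasi-likelihood test, 0 had an unadjusted p under 0.05 and DESeq2 called 0, where edgeR called 0.611% of all genes. In all members the libraries of the 2 groups overlapped, where 15.5% of genes were higher and 15.1% lower without overlap. Log2 differences ran from -0.40 for Srsf4 (SE 0.61) to 0.40 for Srsf11 (SE 0.36), and that of Srsf5 was -0.15 (SE 0.27). SEs ran from 0.27 to 0.61 on the log2 scale, with 2 libraries a group. Differences well above the SE can also miss the threshold, as Srsf2 did with Flag over IgG (1.09, SE 0.34). The missed threshold does not show that recovery was equal.

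**Figure D4:**
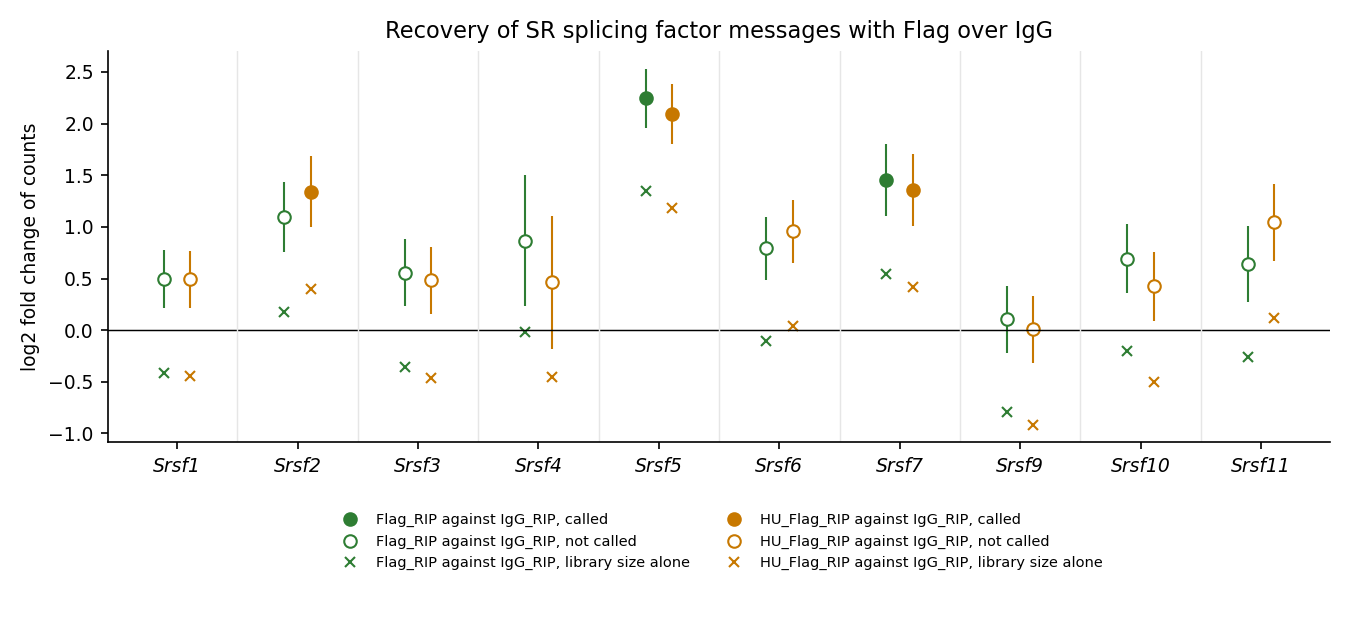
Log2 fold changes over IgG_RIP (bars, SE) of the 10 SR genes in Flag_RIP and HU_Flag_RIP, filled where the edgeR adjusted p was under 0.05; crosses give the value with library size alone. Srsf5 lies highest, at 2.24 and 2.09, and stays above 0 as a cross (1.35 and 1.18), while 7 members with Flag and 5 with HU_Flag turn below 0.

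Partners of the SR proteins were recovered as follows. With Flag, 2 of 14 cofactors were higher over IgG: Tra2a, with 19.4 and 20.6 CPM against 6.37 and 7.79 (1.50, SE 0.37, edgeR adjusted p = 0.036), and Snrnp70, of the U1 particle, with 56.5 and 46.7 against 23.7 and 21.0 (1.21, SE 0.30, edgeR adjusted p = 0.039). Of 9 antagonists 2 were higher, Hnrnpa2b1 with 111 and 98.2 CPM against 38.8 and 33.7 (1.53, SE 0.29) and Hnrnph1 with 70.0 and 45.4 against 15.1 and 24.2 (1.55, SE 0.35). None of the tested kinases, transport or decay genes were called, where 1.16% of all genes were higher. With HU_Flag, Tra2a was again higher (1.56, SE 0.37), as were Hnrnpa2b1 (1.29, SE 0.29), Hnrnph1 (1.39, SE 0.35) and Rbmx, the last with 4.52 and 5.75 CPM against 0.597 and 0. With library size alone Tra2a, Snrnp70, Hnrnpa2b1 and Hnrnph1 lost their calls, at 0.31 to 0.63 with Flag. Under that scaling 3 cofactors, 2 transport genes, 2 decay factors and 1 kinase were instead called lower with Flag, where 21.1% of all genes were, and 5, 3, 3 and 1 with HU_Flag (25.0% of all genes). Without either IgG library no gene of these lists was called over IgG. Between HU_Flag and Flag, edgeR and DESeq2 each called 0 genes of these lists, and 0 had an unadjusted edgeR p under 0.05.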

How the data were processed

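RNA-seq was measured in 8 libraries and RIP in 6. The authors deposited gene-level FPKM with confidence bounds, per the file headers, and raw read counts per gene symbol for RIP, since the deposited values are whole numbers. The submitters' processing notes name the mm10 build and, with no roles, HTSeq 0.6.1, Cuffdiff 2.1.1, Cufflinks 2.1.1, TopHat2 2.0.8 and CASAVA 2.19. The sources used here do not say whether the libraries kept strand. Srsf4 overlaps Gm12992 in the deposited coordinates, so reads of the 2 genes may mix.

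FPKM were summed over the loci of a symbol; of 24883 loci, 280 symbols had several, and 1 failed symbol was left out. Symbols that read as dates (27 in the RIP tables, at most 0.0489% of counts) were left out. FPKM were compared on log2(FPKM + 1) with limma 3.58.1 (limma-trend) in R 4.3.3, over the 2 groups compared, for genes whose mean reached 1 FPKM in either. Counts were compared with edgeR 4.0.16 (quasi-likelihood test), with TMM scaling and filterByExpr, in 1 fit of all 6 RIP libraries. Adjusted p-values are Benjamini-Hochberg values over all genes tested. DESeq2 1.42.0, other scalings, filters and pseudocounts, single libraries left out and a replicate block were the alternatives. The fits were also run on simulated data, and the outcome is not given here.

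The SR genes, the lists beside them and the tests were chosen with earlier results of these data known. The genes named are the 10 members, Dppa5a, at most 3 called genes with the smallest p and no overlap per list and comparison, and the 3 genes most like each of the 3 widest-ranging members; text names a part of these, and 1 gene is not reported here. Replicate numbers were checked as pairs: deviations of same-numbered libraries correlated at -0.551 for mESC and MEF, 0.0125 for the knockdown, 0.0556 for KD_control and mESC, -0.0156 for Flag, -0.0338 for HU_Flag over IgG, and 0.383 for HU_Flag and Flag. The labels name no shared batch, so the numbers were not used as pairs. Cufflinks confidence bounds of the members spanned 1.20% to 10.4% of the FPKM on either side. They describe single libraries and not the spread between replicates. Figures were drawn with matplotlib 3.10.9.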

Additional observations from a re-analysis of the deposited data

How the results depend on the processing

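With 2 libraries a group, counts of calls moved with single libraries, for members and for all genes alike. Where 1 library is left in a group it is assumed to vary like the others. For the knockdown and for KD_control against mESC, the highest member counts came where most genes tested were called. The number of members called lay between 0 and 7 for mESC against MEF (0 without either MEF library), 5 and 10 for the knockdown, 5 and 10 for KD_control against mESC, 1 and 3 for Flag, 0 and 3 for HU_Flag over IgG (0 without IgG replicate 2), and was 0 in each for HU_Flag against Flag. With no filter on low values 3 members were called for the knockdown, where 8.07% of all genes were. Under that setting 4 were called for KD_control against mESC, where 11.1% of all genes were. With library size alone 1 was called for Flag (Srsf5, higher), where 0.611% of all genes were called higher and 21.1% lower. The replicate block gave 3 members for mESC against MEF, where 49.77% of all genes were called. It moved all genes called from 243 to 508 for Flag and from 300 to 617 for HU_Flag over IgG. The pairing crossed for mESC and MEF, chosen after seeing the data, gave 8 members and 8950 genes (69.51% of those tested).

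All genes called were 7304 for mESC against MEF and 2835 and 2993 without MEF replicate 1 and 2. For the knockdown 4618 became 2992 with all 4 groups in the fit, 3023 at 5 FPKM or more, 1964 with no filter, 2916 scaled to a common sum, and 2415 to 9436 with a library left out. The split of 1678 higher and 2940 lower became 2551 and 2123 with median-ratio scaling, which moved the median over all genes from -0.11 to 0.05. For KD_control against mESC 5220 became 2713 with no filter and 1865 to 10895 with a library left out, and 3336 higher and 1884 lower became 2600 and 2439 with median-ratio scaling. In the RIP, 243 for Flag became 433 with no filter and 30 to 248 with a library left out, 300 for HU_Flag over IgG became 532 and 23 to 252, and 64 for HU_Flag against Flag became 41 with those groups alone. With library size alone Flag gave 64 higher and 2214 lower (2278) and HU_Flag 92 and 2617 (2709), with medians of -0.87 and -0.88.

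Directions turned as follows; the cause was not tested. For the knockdown Srsf5 turned to 0.070 with median-ratio scaling and 0.037 scaled to a common sum. With library size alone the Flag values were -0.41 (Srsf1), -0.20 (Srsf10), -0.26 (Srsf11), -0.36 (Srsf3), -0.019 (Srsf4), -0.10 (Srsf6) and -0.79 (Srsf9), and the HU_Flag values over IgG -0.45 (Srsf1), -0.51 (Srsf10), -0.46 (Srsf3), -0.46 (Srsf4) and -0.92 (Srsf9, called lower). Srsf9 in HU_Flag over IgG was also -0.00041 with no filter, -0.0075 with DESeq2 and -0.014 with the replicate block. Srsf1 in HU_Flag against Flag was 0.0089 with RLE scaling, 0.00086 without the 10 most abundant genes, 0.0016 with DESeq2 and 0.0058 with those groups alone. With a library left out, values crossed 0 for Srsf5 (-0.053 to 0.69) and Srsf9 (-0.44 to 0.32) in mESC against MEF, for Srsf5 (-0.50 to 0.29) and Srsf9 (-0.25 to 0.50) after knockdown, and for Srsf9 with Flag (-0.11 to 0.32). In HU_Flag over IgG they crossed 0 for Srsf3 (-0.086 to 0.88), Srsf4 (-0.32 to 0.95), Srsf9 (-0.32 to 0.27) and Srsf10 (-0.088 to 0.80). In HU_Flag against Flag they crossed 0 for Srsf1 (-0.31 to 0.23), Srsf2 (-0.36 to 0.66), Srsf3 (-0.66 to 0.32), Srsf4 (-1.20 to 0.079), Srsf5 (-0.37 to 0.024), Srsf6 (-0.067 to 0.42), Srsf7 (-0.59 to 0.24), Srsf9 (-0.44 to 0.16) and Srsf10 (-0.79 to 0.10).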
